A study of Triticum aestivum with 10 samples.

Results

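Shoots of a necrotic and of a wild-type line of synthetic hexaploid wheat were compared after 6 weeks at 4 °C, on 4 of the 10 arrays of the series. A probe was kept if its spot was well above background, by the scanner software's own flag, on both arrays of at least 1 shoot group, and 32626 of the 37826 probes on the array were kept. Of the 5200 probes that were not kept, 4475 were above background on none of the 4 shoot arrays, 586 on 1 array and 139 on 1 array of each line. Synthetic hexaploid wheat (Triticum aestivum) is a bread wheat made anew from tetraploid wheat and the goat grass Aegilops tauschii. Plants of both lines had grown at 23 °C for 3 weeks before the cold, and shoots that held the shoot apical meristem were taken for total RNA. The wild-type shoot and the necrotic shoot had 2 arrays each, with 1 array per sample. The labels give the lines by phenotype only, as wild-type or as cold-induced hybrid necrosis, and name neither the parents nor the number of plants behind a sample. Leaves of both lines after 12 weeks at 4 °C, and leaves of the necrotic line after 3 weeks at 23 °C without cold, with 2 arrays for each of these groups, were used for reference.

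Hybrid necrosis is a disorder in which some hybrids between otherwise healthy plants lose tissue to cell death, and it is generally regarded as an immune response without a pathogen that is set off by combinations of parental alleles. In some wheat hybrids it appears only in the cold. The shoot apical meristem is the group of dividing cells at the shoot tip from which leaves, stem and later the flowers arise. Plants that survive winter also raise a set of cold-responsive proteins, among them dehydrins and small chloroplast proteins.

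A level below is the log2 of a spot's processed signal minus the log2 of the array's 75th percentile, so that 0 is the 75th percentile of the array. Differences were tested with limma in a fit over all 10 arrays, and a probe was called at a Benjamini-Hochberg adjusted p under 0.05 over the 32626 probes. The 4 shoot arrays were closely alike in brightness, with a 75th percentile of 1858 to 1901 before scaling and 84.9% to 86.3% of probes well above background, and no spot was saturated. They lay on 1 slide that was scanned in 1 run, with the wild-type samples in positions 1 and 2 and the necrotic samples in positions 3 and 4, so that position on the slide and line cannot be told apart. Whether the 2 samples of a line were grown and harvested apart is not given in the labels. The p-values and SEs refer to the spread between the 2 samples of a group, pooled over all 5 groups with leaf included. This spread may be technical. No table used here pairs probes with genes: 0 of 37826 probe names were found in the wheat reference gene table, and 6 names are gene names. The defining markers of leaf, meristem and root had no named probe, so the tissue label could not be checked.

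The lines differed in shoot at a large part of the transcripts measured, and the differences were many times the spread between replicates. Of the probes kept, 69.3% were called, with 10646 (32.6%) higher and 11959 (36.7%) lower in the necrotic shoot. A difference of 2-fold or more was found for 3686 probes that rose in the necrotic shoot (11.3%) and 3378 that fell (10.4%), and the other 15541 called probes differed by less than 2-fold. In whole shoots, fewer cells of a type and less RNA per cell cannot be told apart. The median absolute difference between the lines was 0.47 on the log2 scale, against 0.069 between the 2 wild-type arrays and 0.061 between the 2 necrotic arrays. Any wild-type array differed from any necrotic array by at least 2-fold at 22.4% to 22.8% of probes. Between replicates this was the case for 0.454% of probes in the wild-type and 0.411% in the necrotic shoot. Across probes, which are not independent replicates, replicate arrays correlated at r = 0.998 in each line and arrays of different lines at r = 0.940 to 0.941. For 28802 probes (88.3%) both arrays of 1 line lay beyond both of the other, 13499 (41.4%) with the necrotic shoot above and 15303 (46.9%) with it below.

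**Figure D1:**
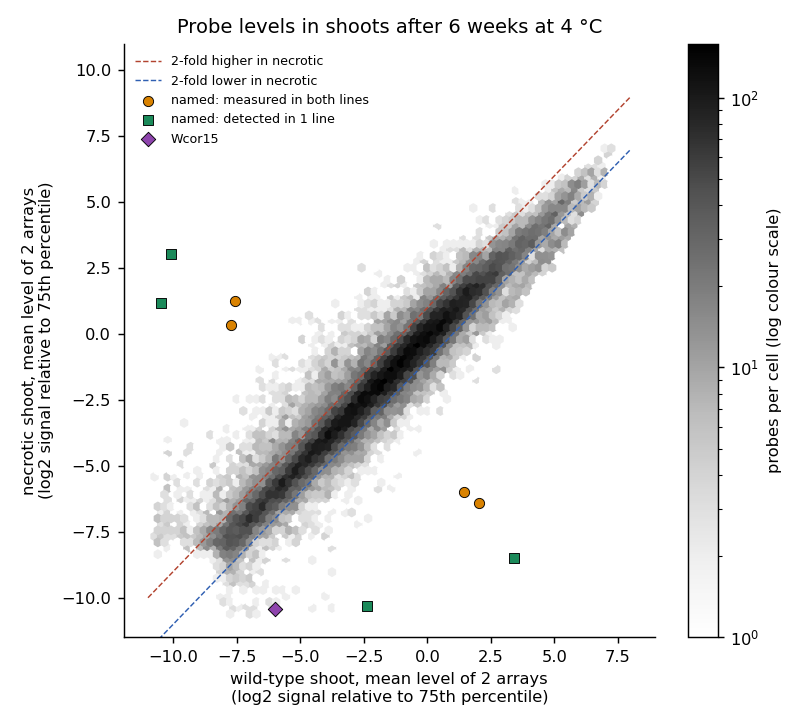
Mean level of each probe in the wild-type shoot (horizontal) and the necrotic shoot (vertical), as log2 signal relative to the array's 75th percentile, with 2 arrays per group and shading by the number of probes on a log scale. Dashed lines mark 2-fold differences; circles, squares and the diamond are the named probes, which lie far outside the band that holds most probes.

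Large differences were more often rises than falls. At 4-fold or more, 1464 probes were higher and 786 lower in the necrotic shoot. At 8-fold or more the counts were 631 and 248, and at 16-fold or more 280 and 115. There were 43 rises and 22 falls of at least 64-fold. Among the 31380 probes that were well above background on all 4 shoot arrays, where both sides of the fold are measured, the 8-fold counts were 445 and 151. Rises thus outnumbered falls 2.54 to 1 at 8-fold in all probes and 2.95 to 1 in those measured on every array. With normexp background correction, which compresses dim signals, the 8-fold counts were 243 and 75.

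The frequency of rises and of falls differed with brightness, though both were found at every level. When the probes were put in 8 groups of equal size by their mean level in the 4 shoot arrays, 679 of the 4079 probes of the dimmest eighth (16.6%) rose 2-fold or more and 450 fell. The share of rises became smaller from each eighth to the next, down to 5.64% in the brightest. Between 343 and 409 probes fell in each of the 6 middle eighths, while the brightest held 710 of the 3378 falls (17.4% of its probes) and 230 of the 3686 rises. The median difference in the brightest eighth was −0.32 on the log2 scale, against −0.05 over all probes. After quantile normalization, which forces the arrays to 1 distribution, the brightest eighth had 11.2% falls and 8.11% rises.

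**Figure D2:**
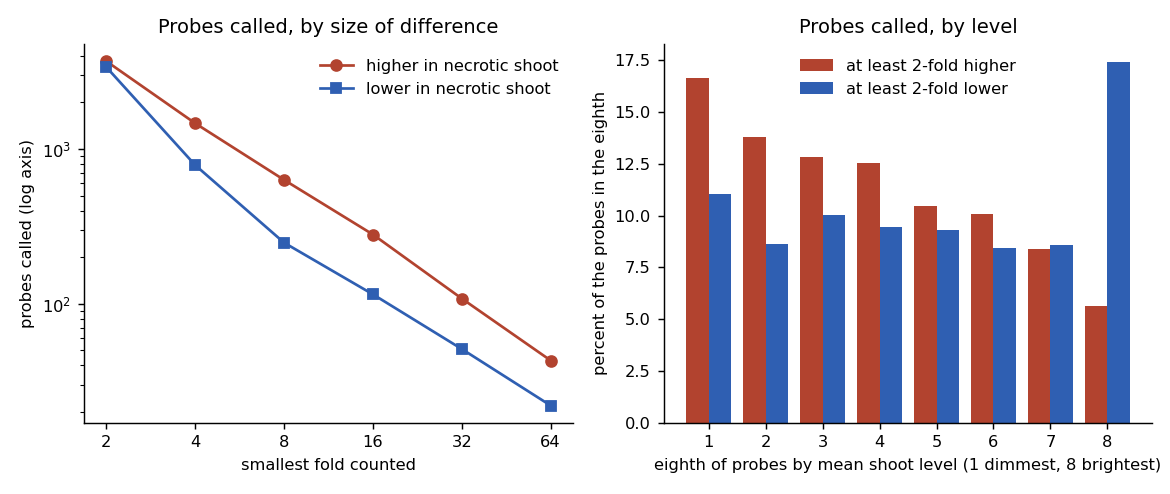
Left, number of probes called higher (circles) and lower (squares) in the necrotic shoot at or above each fold, on a log axis; from 4-fold up, the rises lie above the falls. Right, percent of probes at least 2-fold higher or lower in each eighth of probes by mean shoot level; falls exceed rises in the 2 brightest eighths, with 17.4% against 5.64% in the brightest.

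The same contrast was seen in the amount of signal. The 3378 probes that fell held 27.1% of the summed signal of the kept probes on each wild-type shoot array, and 12.1% on each necrotic shoot array. The 3686 probes that rose held 2.25% and 2.27% on the wild-type arrays and 9.67% and 9.72% on the necrotic arrays. These shares describe probes chosen by the same difference and carry no test. In leaf, whose arrays did not choose the probes, the probes that fell in shoot held 9.18% to 9.45% of the signal on the 4 arrays of both lines at 4 °C, below both shoots, and 14.2% and 13.9% in the necrotic line at 23 °C, above the necrotic shoot. The probes that rose in shoot held 12.4% and 12.3% in wild-type leaf and 13.2% on each array of necrotic leaf at 4 °C, more than in either shoot. In necrotic leaf at 23 °C, they held 9.23% and 9.27%, less than in the necrotic shoot.

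The probes that fell and those that rose also differed in their levels in leaf. The probes that fell had a median level of −0.75 in the wild-type shoot and −2.38 in the necrotic shoot, and of −4.67 in wild-type and −4.59 in necrotic leaf at 4 °C. For 2552 of them (75.5%) the mean level in wild-type leaf was below that of both shoot groups, against 50.7% of all probes kept. The probes that rose had a median of −3.82 in the wild-type shoot and −1.67 in the necrotic shoot, and of −2.17 in wild-type and −1.66 in necrotic leaf. For 1714 of them (46.5%) wild-type leaf was above both shoot groups, against 37.8% of all probes. Most probes that fell in the necrotic shoot thus had a lower signal in wild-type leaf than in either shoot. The probes that rose had a median signal in the necrotic shoot that was close to that in leaf, as did probes in general. Over all probes kept, the median was −1.77 in the necrotic shoot, −2.07 in wild-type leaf and −2.06 in necrotic leaf at 4 °C. Leaf and shoot also differed in weeks of cold, slide and scan.

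Of the probes above background on every shoot array, with names in the form of an accession passed over, rwhkv10e02_224 rose most. It stood at −7.65 and −7.47 on the wild-type arrays and at 1.21 and 1.26 on the necrotic arrays. It was bright in every leaf sample, at 4.38 and 4.41 in wild-type leaf, 3.64 and 3.54 in necrotic leaf at 4 °C, and 1.35 and 1.46 at 23 °C. The wild-type shoot was the only group of the 5 in which its signal was low. The necrotic shoot was 446-fold higher (log2 difference 8.80, SE 0.073, adjusted p in limma 8.45e-09). That the 2 groups did not overlap was a condition of its choice. MUGEST2003_23lib_Contig15558_721 stood at −7.73 on both wild-type arrays and at 0.37 and 0.32 on the necrotic arrays, a 271-fold rise (SE 0.040, adjusted p in limma 3.02e-09). In leaf it was at −3.43 and −3.45 in the wild-type line and at −1.68 and −1.73 in the necrotic line, so that it was higher in the necrotic line in both tissues, in leaf by 3.33-fold (adjusted p in limma 3.19e-07).

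The 2 largest falls were sought in the same set of probes, well above background on all 4 shoot arrays. Neither of these 2 probes was well above background on any leaf array. wheat0130Contig10922 stood at 2.04 and 2.004 in the wild-type shoot and at −6.48 and −6.31 in the necrotic shoot. It fell by 8.42 on the log2 scale (SE 0.41, 342-fold, adjusted p in limma 3.18e-06). The SE of wheat0130Contig10922 includes the spread of leaf spots not well above background. Its standard deviation between replicates was 1.01 in cold necrotic leaf, against 0.029 in the wild-type and 0.125 in the necrotic shoot. wheat0130Contig13248 stood at 1.41 and 1.48 in the wild-type shoot and at −6.19 and −5.76 in the necrotic shoot, 172-fold lower (SE 0.17, adjusted p in limma 1.32e-07). Both were thus bright in the wild-type shoot alone among the 5 groups, and were still measured, at a low level, in the necrotic shoot. After normexp background correction the rises were 63.7-fold for rwhkv10e02_224 and 41.7-fold for MUGEST2003_23lib_Contig15558_721, and the falls 91.1-fold for wheat0130Contig10922 and 56.0-fold for wheat0130Contig13248, all still called. The files give no gene for these 4 probes.

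**Figure D3:**
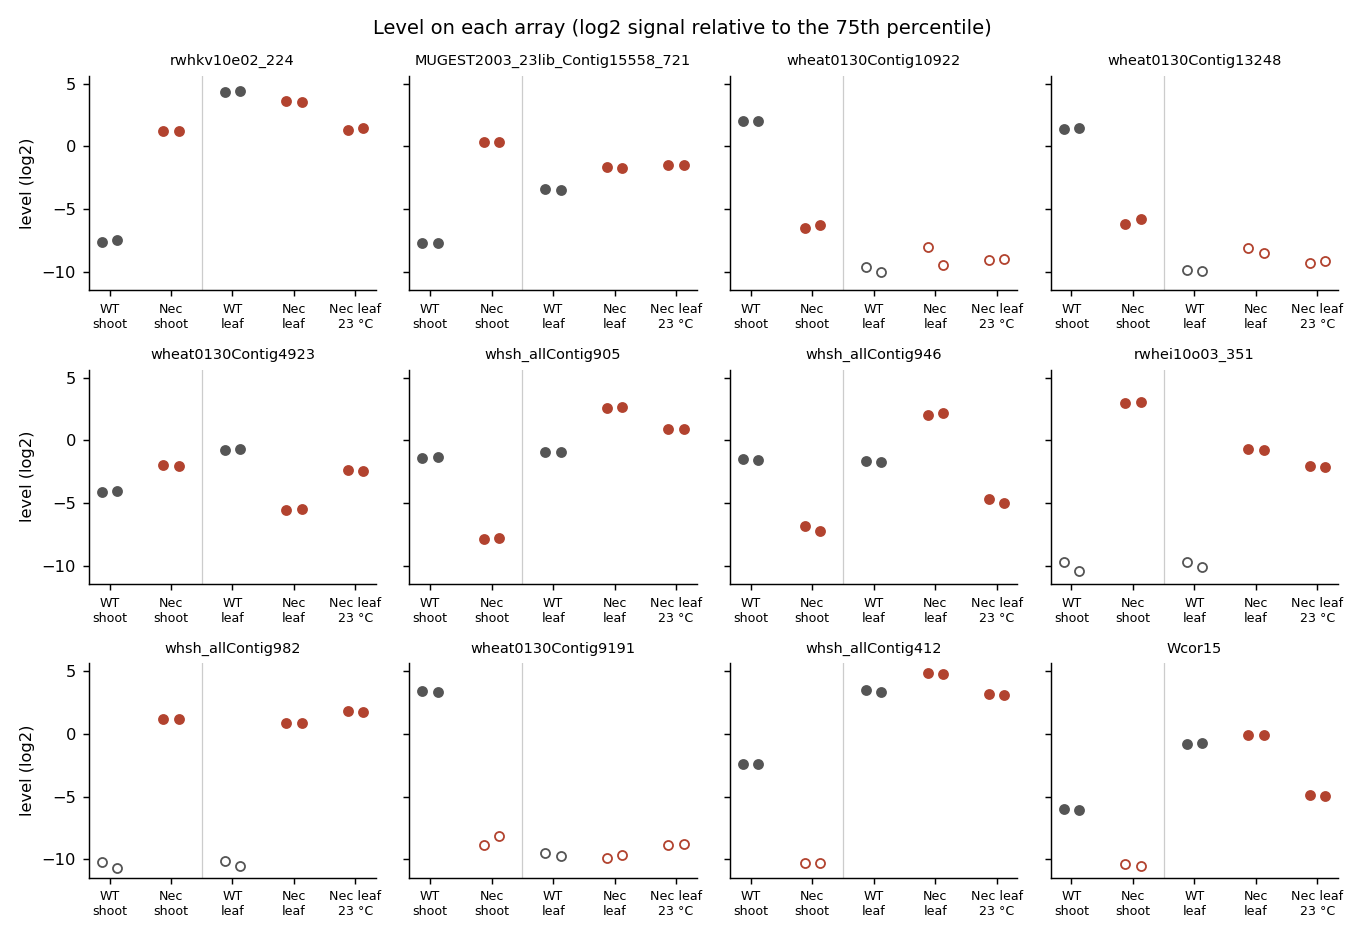
Level on each of the 10 arrays of Wcor15 and of the 11 named probes without a gene name, with wild-type arrays in grey and necrotic arrays in red; open circles are spots not well above background. Replicates lie close together for nearly all filled circles, and the 2 shoot groups do not overlap in any panel.

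Some transcripts were detected in 1 line only. There were 394 probes (1.21% of those kept) that were called and well above background on both necrotic shoot arrays and on neither wild-type shoot array, and 223 (0.684%) with the opposite pattern. Most of these were dim, with a median level of −6.88 and −7.01 in the line that had them. A fold for such a probe is given as a bound. The mean of the line that had it was divided by the mean of the other line, where each array counted at the probe's own signal or at the dimmest signal flagged well above background there, whichever was higher. The bound holds only for the processed signal and with this floor, the lowest that the flag allows. After normexp background correction the fitted folds of the named probes, given with each below, were smaller than their bounds. The bound reached 2-fold for 271 of the 394 and 150 of the 223, and 8-fold for 74 and 39. Counted with a less strict flag for a positive and significant signal, 73 and 30 probes were found in 1 line only.

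These probes differed in what they showed in leaf. Of the 223 seen in the wild-type shoot only, 148 (66.4%) were above background on none of the 6 leaf arrays, as were 131 (33.2%) of the 394 seen in the necrotic shoot only. Of the 394, 229 (58.1%) were well above background on both cold necrotic leaf arrays and 166 (42.1%) on both wild-type leaf arrays. Over all probes kept these shares were 89.8% and 88.1%. Most of the 394 and of the 223 were dim in shoot, and no probes of like level were set beside them. For 21 of the 394 (5.33%) the pattern followed the line in every sample: they were well above background on all 6 necrotic arrays, leaf at 23 °C included, and on none of the 4 wild-type arrays. The reverse, all 4 wild-type arrays and no necrotic array, held for 10 of the 223 (4.48%).

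Among the rises, the probe with the highest bound, rwhei10o03_351, was one of the 21 that followed the line. It stood at 3.01 and 3.06 in the necrotic shoot, and was not well above background in the wild-type shoot or the wild-type leaf. It was at −0.70 and −0.80 in cold necrotic leaf and at −2.03 and −2.14 at 23 °C. Its level in the necrotic shoot was at least 2824-fold that in the wild-type shoot (adjusted p in limma 4.34e-08), and 226-fold higher as fitted after normexp background correction. whsh_allContig982 was also found on every necrotic array and on no wild-type array, at 1.20 and 1.19 in shoot, 0.89 on both arrays of cold leaf, and 1.81 and 1.78 at 23 °C, which gives a rise of at least 788-fold in shoot (adjusted p in limma 2.23e-08), and of 89.0-fold as fitted after normexp. Neither the line difference of whsh_allContig982 in shoot nor that in leaf can be given as more than a bound, and the test of their difference did not pass the threshold (adjusted p in limma 0.126).

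In the other direction, wheat0130Contig9191 was found in the wild-type shoot only, at 3.44 and 3.36, and the 8 other arrays showed no signal well above background. The fall was of at least 3508-fold (adjusted p in limma 5.27e-08), the highest bound on either side, and of 221-fold as fitted after normexp. whsh_allContig412 stood at −2.39 and −2.38 in the wild-type shoot and was not well above background in the necrotic shoot, a fall of at least 69.4-fold (adjusted p in limma 8.56e-09). After normexp background correction the fitted fall was 6.41-fold. In leaf it was bright in both lines, at 3.51 and 3.34 in the wild-type, 4.86 and 4.75 in the cold necrotic leaf, and 3.23 and 3.14 at 23 °C. The necrotic shoot was the only group without a signal of whsh_allContig412 above background.

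Of the probes with a gene name, 2 were measured in shoot. Wcor15 encodes a cold-responsive wheat protein of the chloroplast. It stood at −5.98 and −6.05 in the wild-type shoot and was not well above background in the necrotic shoot, where its signals read −10.37 and −10.52. The fall was of at least 5.62-fold (adjusted p in limma 2.21e-08), and of 1.53-fold as fitted after normexp background correction, where the call held. In leaf the order of the lines was the other way round, with −0.78 and −0.71 in the wild-type and −0.06 on both arrays of the necrotic line (1.61-fold higher, adjusted p in limma 0.000135). At 23 °C it was at −4.88 and −4.91. RD29B, which in Arabidopsis responds to abscisic acid and drought, stood at −5.40 and −5.42 in the wild-type and −5.33 and −5.35 in the necrotic shoot. Its difference of 0.065 (SE 0.093) did not pass the threshold (adjusted p in limma 0.565), and its sign turned with quantile normalization (−0.056) and scaling to the median (−0.014), where it was not called either. The dehydrin cor47, the cold- and drought-induced RD29A, and DREB2A and DREB2B, which in Arabidopsis are transcription factors of the dehydration response, gave no signal well above background on any array, and their shoot values lay between −10.82 and −10.13 in both lines.

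Separate probes that carry the name of the same clone were compared with each other. There were 1820 clone names with 2 kept probes, 1 whose name begins with r and 1 without it, and the files do not say what the letter marks. The line differences of the 2 probes had the same sign for 83.1% of the pairs and were apart by a median of 0.19 on the log2 scale, with a correlation across pairs of r = 0.728. Both probes were called at 2-fold or more for 231 pairs. Of these, 134 rose with both probes, 93 fell with both and 4 went in opposite directions. The 231 pairs were 58.5% of the 395 whose probe with r was called and 73.1% of the 316 whose probe without r was called. The call of a single probe at the 2-fold threshold was thus often not shared by its partner, while its direction was shared in nearly all pairs in which both were called.

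**Figure D4:**
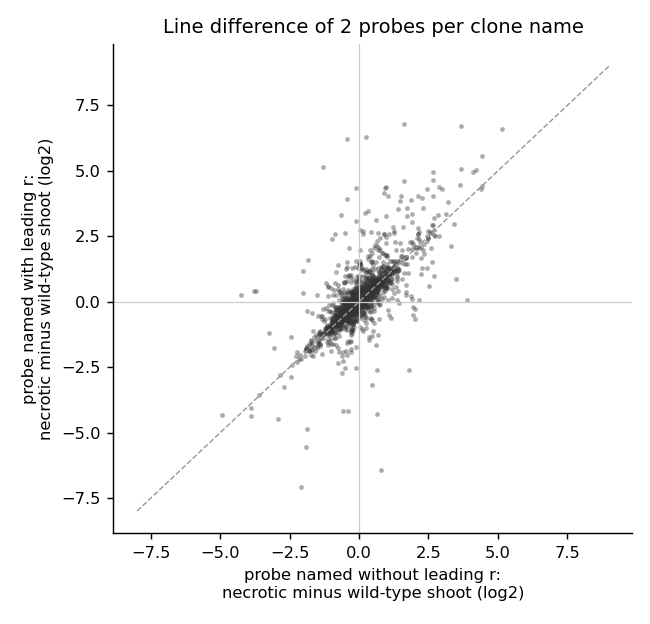
Necrotic minus wild-type shoot difference (log2) of the probe named without (horizontal) and with (vertical) the leading r, 1 point for each of 1820 clone names; the dashed line marks equal values. Most points lie along the line through 0, and the points on the axes are clones for which only 1 of the probes differed.

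A second kind of pair, 833 names with 1 probe marked p and 1 marked m, gave less similar values. Both probes were kept for 273 of them, only p for 272, only m for 133 and neither for 155. Across the 273, the signs were the same for 60.4%, the median gap was 0.46 and the correlation was r = 0.380. Both were called at 2-fold or more in 18 pairs, with 9 rises, 7 falls and 2 opposite. The meaning of these letters is not given in the files, as for the leading r. Neither kind of pair can thus be taken as repeat measurements of 1 transcript.

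Probes differed in direction by the series to which their names belong. Among the 1268 kept probes whose names begin with MUG and a number, 2.52% rose at least 2-fold and 24.4% fell, against 11.3% and 10.4% of all probes, and their median difference was −0.45. Of these probes 44.3% lay in the brightest eighth, where falls were most frequent. In that eighth 35.4% of them fell, against 17.4% of all its probes. Outside it 15.6% of them fell, with no probes of like level set beside them. The 94 kept yNPF probes had 4.26% rises and 18.1% falls. Of them 44.7% lay in the brightest eighth, where 5.64% of all probes rose and 17.4% fell. The 6110 MUGEST2003 probes had 15.3% rises and 8.38% falls, and the 158 probes named by a gi number had 23.4% and 7.59%. Only 3.96% and 2.53% of these lay in the brightest eighth. Whether level accounts for the differences between the series was not tested. The files do not describe the collections behind these names, and probes of a series can share transcripts.

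The line difference in leaf was then set beside that in shoot for the same probes. The leaf arrays share no sample with the shoot arrays. Of the 3686 probes that rose in the necrotic shoot, 862 (23.4%) were also at least 2-fold higher in necrotic than in wild-type leaf, and 144 (3.91%) were at least 2-fold lower there. Among all probes kept these leaf calls were made for 6.77% and 3.19%. Of the 3378 that fell in shoot, 284 (8.41%) were also lower in necrotic leaf and 329 (9.74%) were higher. Leaf calls in the same direction were thus more frequent than over all probes for rises (23.4% against 6.77%) and for falls (8.41% against 3.19%). Falls also had more opposite leaf calls than all probes (9.74% against 6.77%), and rises slightly more (3.91% against 3.19%). Signal was well above background on both wild-type leaf arrays for 72.0% of the falls and 83.9% of the rises, against 88.1% of all probes. Leaf calls were made with or without such a signal, and whether it bears on these shares was not tested.

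Leaf calls in the same direction became more frequent with the size of the shoot change, for rises and for falls. Over all probes kept, 6.77% were called higher and 3.19% lower in necrotic leaf. Of the 2222 probes that rose 2- to 4-fold in shoot, 15.2% were also higher in leaf, and the share was 28.8% of 833 at 4- to 8-fold, 41.3% of 351 at 8- to 16-fold and 49.6% of 280 at 16-fold or more. In the last band 4 probes (1.43%) went the other way in leaf, and the median leaf difference was 1.04. Of the probes that fell, 7.14% of 2592, 10.2% of 538, 17.3% of 133 and 18.3% of 115 were also lower in leaf in the same bands. In the band of falls of 16-fold or more, 16 probes (13.9%) were higher in necrotic leaf, and the median leaf difference was −0.11.

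**Figure D5:**
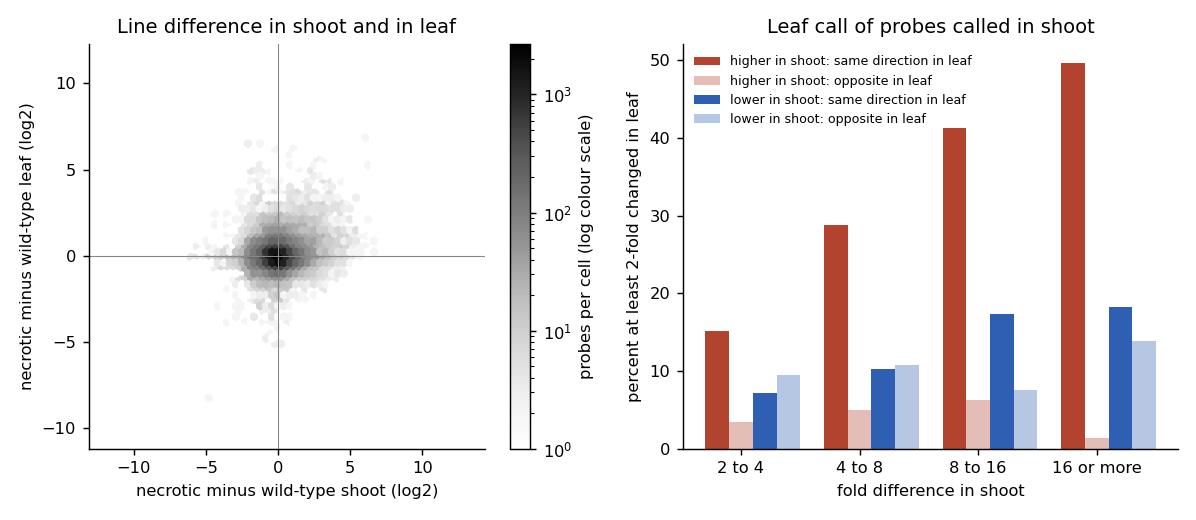
Left, line difference (log2, necrotic minus wild-type) of each probe in shoot (horizontal) and leaf (vertical), shaded by number of probes on a log scale. Right, percent of the probes called in shoot that were at least 2-fold changed in leaf in the same (full colour) or the opposite (pale) direction, by fold in shoot; for rises the same-direction share goes from 15.2% to 49.6%, and for falls from 7.14% to 18.3%.

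Whether a line difference was larger in 1 tissue was tested directly, as the difference in shoot minus that in leaf, and 65.3% of the probes passed at any size. At 2-fold or more, the value was higher in shoot for 4159 probes (12.7%) and lower in shoot for 4381 (13.4%). Of the 3686 rises, 2648 (71.8%) also passed this test in the same direction, and of the 3378 falls 2439 (72.2%) did. The shoot arrays enter both sides of these shares. Of the rises 122, and of the falls 36, were changed further in the same direction in leaf by this test. For 2 probes no leaf value could be fitted because their spots were outliers.

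Among probes well above background on all 8 cold arrays, rwhkv10e02_224 had the highest value of this difference, 9.60 (SE 0.10, adjusted p in limma 3.74e-08). Most of it was the shoot difference of 8.80, and in leaf the necrotic line was 1.74-fold lower (log2 difference −0.80). wheat0130Contig4923 came next with 6.89 (SE 0.074, adjusted p in limma 3.74e-08). It stood at −4.17 and −4.06 in the wild-type and −1.98 and −2.04 in the necrotic shoot, a 4.30-fold rise, and at −0.75 and −0.73 in the wild-type and −5.55 and −5.49 in the necrotic leaf, a 27.5-fold fall. The cold necrotic leaf was also below the necrotic leaf at 23 °C for wheat0130Contig4923, which read −2.40 and −2.45.

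At the other end, whsh_allContig905 stood at −1.43 and −1.32 in the wild-type and at −7.86 and −7.77 in the necrotic shoot, an 86.4-fold fall, while in leaf it rose 11.7-fold, from −0.92 and −0.94 to 2.61 and 2.62. The difference was −9.98 (SE 0.074, adjusted p in limma 2.21e-08). whsh_allContig946 stood at −1.54 and −1.56 in the wild-type shoot and at −6.83 and −7.21 in the necrotic shoot, 44.5-fold lower. In leaf it was 13.7-fold higher in the necrotic line, at 2.02 and 2.14 against −1.66 and −1.72, with a difference of −9.25 (SE 0.20, adjusted p in limma 2.38e-07). Both of these probes were thus at similar levels in the 2 tissues of the wild-type line, and far apart in the 2 tissues of the necrotic line. After normexp background correction the shoot minus leaf values were 6.83 for rwhkv10e02_224, 5.07 for wheat0130Contig4923, −7.24 for whsh_allContig905 and −7.09 for whsh_allContig946. At 23 °C, necrotic leaf read 0.89 and 0.92 for whsh_allContig905 and −4.69 and −4.99 for whsh_allContig946.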

How the data were processed

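Samples were total RNA, run in 1 colour (Cy3) on Agilent arrays, per the labels' protocols. The deposited scanner tables hold spot intensity on a linear scale from Agilent Feature Extraction, whose version is 10.5.1.1 in the file headers, while the submitters' processing notes name 9.5. The authors' processed intensity had been corrected for background and spatial trend on each array, per the file headers, and arrays are not scaled to each other. The deposited series matrix holds the same intensity values, with a largest relative difference of 0 over 39243 features; its column medians were 301.2 and 292.6 for wild-type shoot, 316.1 and 305.7 for necrotic shoot, and 104.8 to 212.6 for leaf. The matrix is thus on a linear scale, was not centred and holds no ratios.

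Control spots were left out, levels were log2 signals minus the array's 75th percentile, and outlier spots (12 to 33 per shoot array) were missing. The fit had 1 mean per group over 10 arrays (R 4.3.3, limma 3.58.1); degrees of freedom were 5 residual and 1.59 prior, with two-sided p-values and Benjamini-Hochberg adjustment. Code was tested on simulated data. The number of arrays, 2 per group, limits precision. The labels gave groups and replicate numbers.

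The comparison, its members and the lists were chosen with earlier results of these data known. Of 13 gene lists, the cold-responsive list matched 4 probe names (Wcor15, cor47, DREB2A, DREB2B), of which 1 was tested; the others matched 0. For the shoot and the shoot minus leaf differences, the 2 largest values of each sign were named among called probes of at least 2-fold that were well above background throughout and whose shoot groups did not overlap; of probes detected in 1 line, the 2 highest bounds on each side; and all gene-named probes. Pathways are not analysed here.

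Alternatives were normexp (offset 50, on median spot signals, since no mean signal column was given), quantile and median scaling, other filters, other samples in the fit, an intensity trend, outlier spots kept, a less strict detection flag, the replicate number as a term and leaving out each shoot array. The numbers were not taken as pairs, because the labels do not say that a number marks a shared batch. Same-numbered samples of the 2 shoot groups deviated with a correlation of 0.035 across probes.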

Additional observations from a re-analysis of the deposited data

Results flagged for a closer look

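These results stand out because the line difference was not the same in shoot and in leaf, as limma tested directly; tissue, weeks of cold, slide and scan changed together and cannot be told apart. At 2-fold or more the value was higher in shoot for 4159 probes and lower in shoot for 4381. Which of these counts was larger depends on the filter and the scaling, as given above. Among the named probes, the line difference in shoot minus that in leaf was 9.60 on the log2 scale for rwhkv10e02_224, 6.34 for MUGEST2003_23lib_Contig15558_721 and 6.89 for wheat0130Contig4923. It was −9.98 for whsh_allContig905 and −9.25 for whsh_allContig946, which fell in the necrotic shoot and rose in the necrotic leaf.

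For the others, at least 1 group was not well above background, and the fitted values, which depend on dim signals, are no measured folds. They were −9.47 for wheat0130Contig10922, −9.01 for wheat0130Contig13248, 3.95 for rwhei10o03_351, −11.70 for wheat0130Contig9191, −9.32 for whsh_allContig412 and −5.11 for Wcor15. RD29B differed by 0.38 (adjusted p in limma 0.0376), with no called line difference in shoot and one of −0.32 in leaf (adjusted p in limma 0.0248).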

How the results depend on the processing

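Of 98 recomputed counts, 94 stayed within 1.5 times the reported count. With normexp, which compresses dim signals, 2437 probes rose 2-fold or more in the necrotic shoot and 2463 fell, and 2633 had a higher line difference in shoot than in leaf. With the less strict detection flag, 73 probes were found in the necrotic shoot only and 30 in the wild-type shoot only. Leaving out 1 shoot array at a time gave 3554 to 3694 probes at least 2-fold higher, 3157 to 3298 lower, 9444 to 9787 higher and 10444 to 10910 lower at any size. It gave 352 to 459 and 194 to 293 detected in 1 line only, and 3996 to 4152 higher and 4132 to 4279 lower in shoot than in leaf; the lone array of a line was taken to vary like the other groups. With the replicate number as a term (replicate block) the 2-fold counts were 3681 and 3363, and no count moved by over 1.5 times. Which 2-fold count was larger depends on the scaling: rises were 52.2% of the 2-fold calls as reported, 46.8% with scaling to the median, which moved the median difference from −0.05 to −0.12, and 49.7% with normexp. Of the 3686 rises and 3378 falls, 2399 and 2351 were called at 2-fold with normexp, and 3557 and 3031 with quantile normalization. With only probes well above background on all 4 shoot arrays, 151 fell at least 8-fold. Every named probe that was called kept its direction and its call in all settings run for it. RD29B, not called in any setting, turned from 0.065 to −0.056 with quantile normalization and to −0.014 with scaling to the median. Folds of probes measured in both lines ran from 63.7 to 743 for rwhkv10e02_224 and from 91.1 to 568 for wheat0130Contig10922. The settings for the brightest eighth and for 8-fold changes were chosen after seeing the data. Dim signals limit all folds near background.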
